A study of Homo sapiens with 9 samples.

Results

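Fatty acid oxidation is the main way in which liver cells draw energy from fat, and 38 genes of this pathway, of ketone body metabolism and of its control by the nuclear receptor PPARA were followed in Huh7 cells. The genes were taken by symbol from a table of 27800 gene symbols, and all 38 were listed. Huh7 is an established human hepatocellular carcinoma line. RNA sequencing of total RNA gave 3 libraries from cells given vehicle, 3 from cells given 5 uM FIDAS-5, an inhibitor of the methionine adenosyltransferase MAT2A, and 3 from cells given 0.5 uM JQ1, an inhibitor of the BET bromodomain proteins, both for 48 h. All cells were grown in serum-containing DMEM, each compound was given at 1 dose and 1 time, and the labels do not describe the vehicle or say if each library had its own culture. The p-values therefore rest on a spread between libraries that may be only technical. Values are TPM, transcripts per 1000000, which are scaled by transcript length and so can be compared between genes, but which keep no read counts, so that the depth behind each value is unknown.

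As background, long-chain fatty acids are joined to coenzyme A, carried into mitochondria as carnitine esters and shortened there by repeated rounds of dehydrogenation, hydration, a further dehydrogenation and thiolysis. Very-long-chain and branched substrates, and the side chains of bile acid precursors, are shortened in peroxisomes. The liver turns much of the acetyl-CoA into ketone bodies for export, and in fasting PPARA, with coactivators and with the liver transcription factor CREB3L3, raises many genes of these steps.

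Of the 38 genes, 34 reached 1 TPM in at least 3 of the 9 libraries and were tested among 13573 genes. The other 4, ACADL, PPARGC1A, PDK4 and VNN1, stayed under 1 TPM in every library. BDH1 reached 1 TPM only in the FIDAS-5 libraries and OXCT1 only in the vehicle libraries, so these genes entered the test through the group in which they were high. A gene is said to have risen or fallen where limma gave an adjusted p under 0.05 over all tested genes. Log2 fold changes are on the scale of log2(TPM + 1), which understates the change of genes at a few TPM or less. The liver identity of the line showed in 12 of 12 hepatocyte markers, whose summed level was 5296 to 6210 TPM in vehicle, 4289 to 6395 TPM with FIDAS-5 and 11213 to 16233 TPM with JQ1. With JQ1 9 of these markers rose and 2 fell, beside 19.0% and 19.4% of all tested genes. With FIDAS-5 2 rose, beside 12.6% of all tested genes. In bulk RNA, fewer cells with a transcript and less of it per cell cannot be told apart.

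With FIDAS-5, 15 of the 34 tested genes rose and 2 fell, beside 12.6% of all tested genes that rose and 7.60% that fell. Quantile normalization moved the split over all genes from 1711 higher and 1031 lower to 1904 higher and 1756 lower, and gave 15 higher and 2 lower of the 34, with ECI1 lost (adjusted p = 0.144) and ETFDH gained (adjusted p = 0.0380). With JQ1, 12 of the 34 rose and 5 fell, beside 19.0% and 19.4% of all tested genes. These counts include BDH1 among the rises with FIDAS-5 and OXCT1 among the falls with both compounds. Each of these genes was tested only through the group in which it was high. Both comparisons use the same vehicle libraries. Side by side, 9 genes rose with both compounds, OXCT1 fell with both, and CREB3L3, FABP1 and ACOX2 rose with FIDAS-5 and fell with JQ1. The shares of all tested genes that moved the same way or opposite ways with the compounds were not counted. Whether these joint numbers are unusual therefore cannot be said. The median log2 fold change of the 34 was 0.33 with FIDAS-5 and 0.22 with JQ1, where the median of all tested genes was -0.02 and -0.01. Without JQ1 replicate 3 the medians with JQ1 were 0.38 for the 34 and 0.12 for all genes, and without JQ1 replicate 2 they were 0.14 and -0.04.

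**Figure D1:**
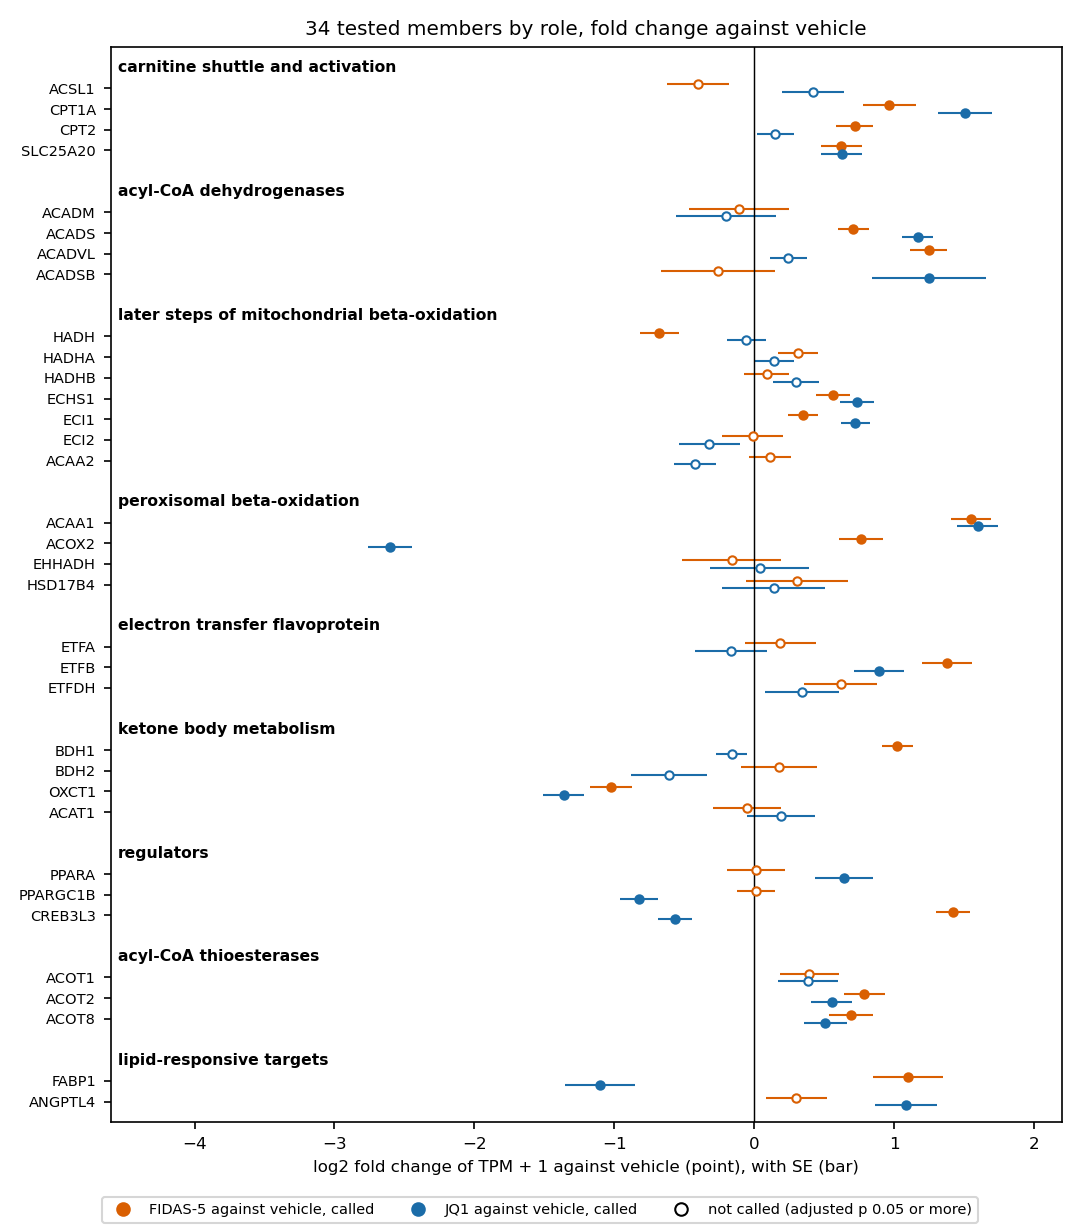
Log2 fold change of TPM + 1 against vehicle (horizontal axis) for the 34 tested genes, grouped by role, with FIDAS-5 in orange and JQ1 in blue. Points are fold changes, bars their standard errors, and filled points have an adjusted p under 0.05; ACOX2, CREB3L3 and FABP1 are the genes with filled points on opposite sides of 0.

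CREB3L3, FABP1 and ACOX2 went opposite ways with the compounds. CREB3L3, a membrane-bound transcription factor of the liver that is released by proteolysis, lies on chromosome 19 from 4153631 to 4173054 (RefSeq coordinates on GRCh38). It was at 4.08, 4.61 and 4.74 TPM in the vehicle libraries, 14.1, 12.1 and 14.8 TPM with FIDAS-5 and 2.66, 2.60 and 2.82 TPM with JQ1. The 3 groups did not overlap, with FIDAS-5 above and JQ1 below vehicle. The log2 fold change was 1.42 with FIDAS-5 (SE 0.12, adjusted p = 0.000118), -0.57 with JQ1 (SE 0.12, adjusted p = 0.00596) and -1.99 between JQ1 and FIDAS-5 (adjusted p = 6.38e-06).

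FABP1, the liver fatty acid binding protein and a classical PPARA target, lies on chromosome 2 from 88122982 to 88128062 and was the most abundant of the 38 in vehicle. It stood at 148, 216 and 150 TPM in the vehicle libraries, 383, 434 and 288 TPM with FIDAS-5 and 83.3, 99.6 and 57.4 TPM with JQ1. Again no group overlapped another, and the lowest library of each treated group was replicate 3. FABP1 rose by 1.10 on the log2 scale with FIDAS-5 (SE 0.25, adjusted p = 0.0148) and fell by 1.10 with JQ1 (SE 0.25, adjusted p = 0.00805). The rise was not called without vehicle replicate 3 (adjusted p = 0.0621) or FIDAS-5 replicate 2 (adjusted p = 0.0559).

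ACOX2, the peroxisomal oxidase of branched-chain acids and bile acid precursors, is on chromosome 3 from 58505136 to 58537190. Its level was 19.1, 13.9 and 18.0 TPM in the vehicle libraries, 33.3, 25.7 and 29.4 TPM with FIDAS-5, and 2.08, 2.05 and 1.68 TPM with JQ1. Every JQ1 library lay far below every other library. Mean levels were 17.0 ± 2.74 TPM (SD, n = 3) in vehicle and 1.94 ± 0.223 TPM with JQ1, a ratio of 0.114. The log2 fold change with JQ1 was -2.60 (SE 0.16, adjusted p = 1.45e-05), the farthest from 0 of the 34 in that comparison, and with FIDAS-5 it was 0.77 (SE 0.16, adjusted p = 0.00936). Between the compounds it was -3.37 (adjusted p = 1.55e-06).

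The 250 bases before the annotated start of FABP1 and CREB3L3 are shown because these genes moved together and both windows hold a direct repeat of the kind that PPARA and other nuclear receptors bind. ACADS, a gene that rose with both compounds, is shown as the only other member with the repeat among those that could be searched. The repeat searched was 2 copies of GGNCA with NA between them, on both strands, with N any base, and the match is in capitals. Sequences are from RefSeq on GRCh38.p14, 5′ to 3′ on the strand of the gene: FABP1 from chr2:88128063-88128312 (minus strand), CREB3L3 from chr19:4153381-4153630 (plus strand) and ACADS from chr12:120725576-120725825 (plus strand).
FABP1: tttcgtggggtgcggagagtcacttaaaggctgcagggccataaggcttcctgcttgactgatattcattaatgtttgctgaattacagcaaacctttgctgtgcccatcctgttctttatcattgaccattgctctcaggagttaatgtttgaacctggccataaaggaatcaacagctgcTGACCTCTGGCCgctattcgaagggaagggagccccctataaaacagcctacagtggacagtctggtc
CREB3L3: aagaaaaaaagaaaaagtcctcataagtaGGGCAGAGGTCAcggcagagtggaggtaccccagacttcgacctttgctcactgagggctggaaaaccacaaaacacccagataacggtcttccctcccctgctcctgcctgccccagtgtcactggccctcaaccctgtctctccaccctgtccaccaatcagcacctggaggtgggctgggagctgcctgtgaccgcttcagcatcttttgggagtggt
ACADS: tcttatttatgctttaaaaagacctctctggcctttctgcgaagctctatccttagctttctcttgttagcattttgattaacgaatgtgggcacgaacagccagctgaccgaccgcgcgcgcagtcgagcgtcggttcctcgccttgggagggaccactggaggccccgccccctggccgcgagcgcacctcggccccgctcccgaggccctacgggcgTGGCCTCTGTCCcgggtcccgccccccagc

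The match lay 68 to 57 bases before the start of FABP1, on the reverse strand, 221 to 210 bases before that of CREB3L3, on the forward strand, and 30 to 19 bases before that of ACADS, on the reverse strand. Promoter windows of 300 bases were listed for 32 of the 38 genes, 46 windows in all, and the repeat was in 3 of them. ACOX2, which also moved opposite ways, had no window and could not be searched. The same holds for ACAA1, ACOT1, EHHADH, ETFDH and VNN1. Of all 35116 windows listed, 0.917% held the repeat. A single copy with its flanking base, AGGTCA, which was in 13.8% of all windows, was found among these genes in FABP1 and CREB3L3, where it lies inside the repeat. The genes and the motif were chosen after the fold changes were known, and a match in these letters shows neither binding nor a cause of the change.

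**Figure D2:**
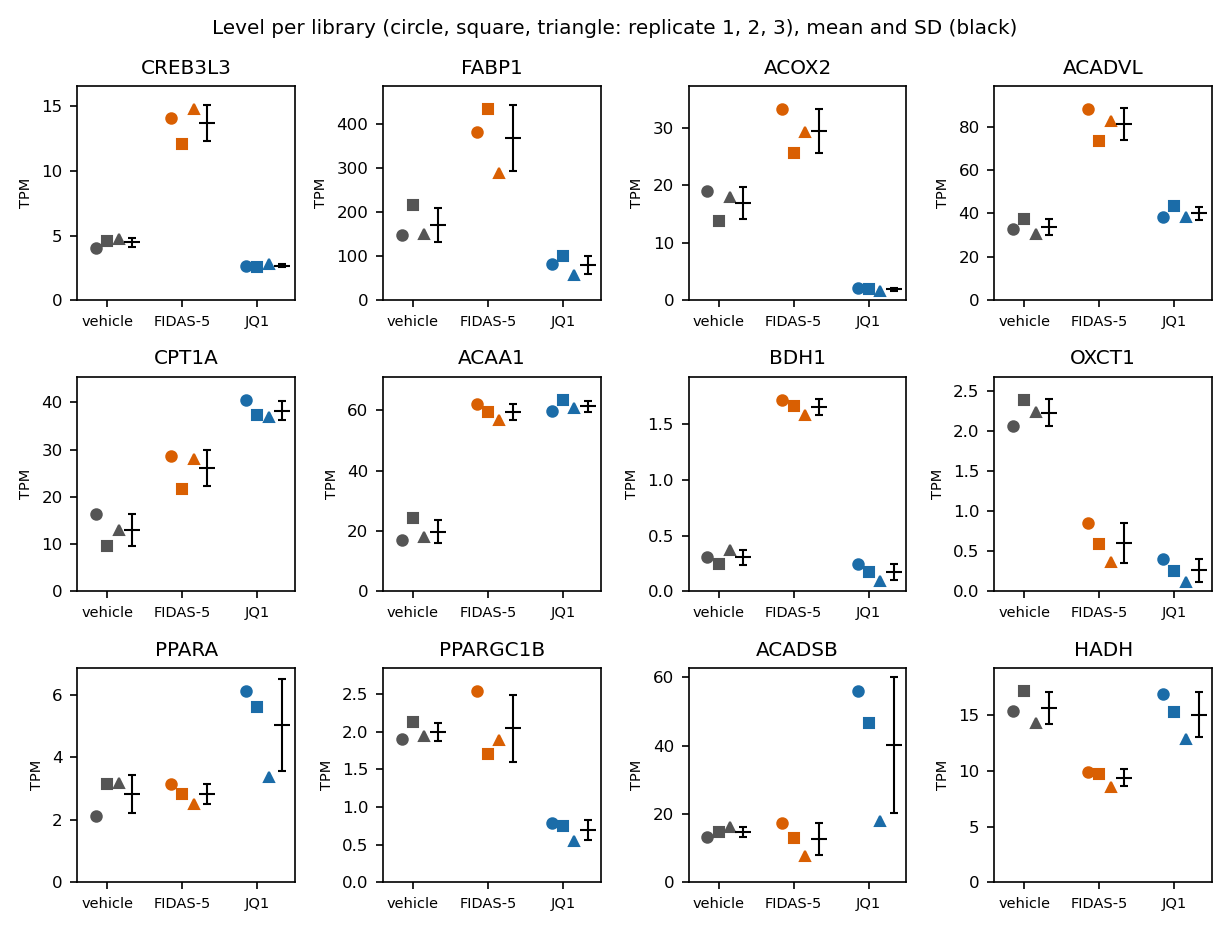
TPM per library (vertical axis, from 0) for 12 of the genes in vehicle, FIDAS-5 and JQ1 (horizontal axis), with circles, squares and triangles for replicates 1, 2 and 3 and the mean and SD of 3 libraries in black. CREB3L3, FABP1 and ACOX2 stand highest with FIDAS-5 and lowest with JQ1, and the JQ1 triangle of ACADSB, at 17.9 TPM, lies far below the circle and the square.

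Among the other regulators, PPARA itself was low. PPARA, on chromosome 22 from 46150526 to 46243756, was at 2.13, 3.15 and 3.19 TPM in the vehicle libraries, 3.16, 2.82 and 2.51 TPM with FIDAS-5 and 6.12, 5.62 and 3.37 TPM with JQ1. The FIDAS-5 libraries overlapped vehicle (log2 fold change 0.01, SE 0.21, adjusted p = 0.971), and the JQ1 libraries lay above it, replicate 3 only just. PPARA rose with JQ1 by 0.64 (SE 0.21, adjusted p = 0.0362), but the call was lost with no filter on low values (adjusted p = 0.0583), when only the 6 libraries compared were fitted (adjusted p = 0.0729), and without any of the vehicle libraries, FIDAS-5 replicate 2 or JQ1 replicates 1 or 2 (adjusted p = 0.0556 to 0.117). PPARGC1B, a coactivator of mitochondrial genes, was at 1.90, 2.13 and 1.95 TPM in the vehicle libraries, 2.54, 1.70 and 1.89 TPM with FIDAS-5 and 0.790, 0.745 and 0.551 TPM with JQ1. It fell with JQ1 (log2 fold change -0.82, SE 0.14, adjusted p = 0.00171; -1.41 with a pseudocount of 0.1), and the FIDAS-5 libraries lay on both sides of vehicle (0.02, adjusted p = 0.948). Its relative PPARGC1A, which drives the fasting programme in liver, was at 0.171, 0.162 and 0.287 TPM in the vehicle libraries, 0.0315, 0.0266 and 0.0412 TPM with FIDAS-5 and 0.237, 0.0951 and 0.0954 TPM with JQ1, and was not tested at these levels.

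Of the 4 genes listed as lipid-responsive targets, FABP1 and ANGPTL4 could be tested. ANGPTL4, a secreted inhibitor of lipoprotein lipase on chromosome 19 (8364155 to 8374370), was at 1.43, 0.476 and 1.62 TPM in the vehicle libraries, 1.79, 1.71 and 1.32 TPM with FIDAS-5 and 2.93, 3.48 and 4.06 TPM with JQ1. All JQ1 libraries were above all others, and ANGPTL4 rose with JQ1 by 1.08 (SE 0.22, adjusted p = 0.00474; 1.63 with a pseudocount of 0.1). With FIDAS-5 it overlapped vehicle (log2 fold change 0.30, adjusted p = 0.375). VNN1, a pantetheinase, was at 0.193, 0.202 and 0.166 TPM in the vehicle libraries, 0.870, 0.823 and 0.563 TPM with FIDAS-5 and 0.0979, 0.0505 and 0.0204 TPM with JQ1. These groups did not overlap, in the order seen for CREB3L3 and FABP1, but all values were under 1 TPM. PDK4, the kinase that turns off pyruvate dehydrogenase, was at 0.192 to 0.356 TPM in vehicle, 0.181 to 0.411 TPM with FIDAS-5 and 0.0701 to 0.128 TPM with JQ1.

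Of the 4 genes for activation and entry into mitochondria, 3 rose with FIDAS-5 and 2 with JQ1, and none fell. CPT1A, the rate-controlling carnitine palmitoyltransferase of the outer membrane on chromosome 11 (68754620 to 68844277), was at 16.4, 9.68 and 13.1 TPM in the vehicle libraries, 28.7, 21.7 and 28.0 TPM with FIDAS-5 and 40.5, 37.3 and 36.9 TPM with JQ1. The groups did not overlap, and JQ1 was highest. CPT1A rose by 0.97 with FIDAS-5 (SE 0.19, adjusted p = 0.00808) and by 1.51 with JQ1 (SE 0.19, adjusted p = 0.000437). SLC25A20, the carrier that exchanges acylcarnitine for carnitine across the inner membrane, was at 28.7, 34.3 and 24.3 TPM in the vehicle libraries, 46.0, 43.4 and 45.4 TPM with FIDAS-5 and 45.1, 49.7 and 40.6 TPM with JQ1. Both treated groups lay above vehicle by the same log2 fold change of 0.62 (adjusted p = 0.0182 and 0.00999). The rise of SLC25A20 with FIDAS-5 was not called without vehicle replicate 3, FIDAS-5 replicate 1 or FIDAS-5 replicate 3 (adjusted p = 0.0551 to 0.0743). CPT2, which restores the acyl-CoA on the inner side, rose with FIDAS-5 from 14.3 ± 0.864 to 24.3 ± 3.30 TPM (SD, n = 3; log2 fold change 0.72, adjusted p = 0.00558) and was at 16.0 ± 0.858 TPM with JQ1 (0.15, adjusted p = 0.401). ACSL1, the main long-chain acyl-CoA synthetase of liver, was called in neither comparison with vehicle (-0.40 and 0.42, adjusted p = 0.246 and 0.168), and was higher with JQ1 than with FIDAS-5 (0.82, adjusted p = 0.0198). Its JQ1 libraries were at 15.2, 12.5 and 7.86 TPM, and without JQ1 replicate 3 it rose against vehicle (0.67, adjusted p = 0.0164). With all 9 libraries it was called under median-of-ratios scaling, quantile normalization and correction for GC (adjusted p = 0.0333, 0.0302 and 0.00313).

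The acyl-CoA dehydrogenases, which open each round and differ in chain length, did not move together. ACADVL, which acts on very long chains and lies on chromosome 17 (7217125 to 7225266), was at 33.0, 37.6 and 30.5 TPM in the vehicle libraries, 88.1, 73.4 and 82.4 TPM with FIDAS-5 and 38.3, 43.4 and 38.3 TPM with JQ1. The FIDAS-5 libraries were well above all others, and the JQ1 libraries lay just above vehicle. ACADVL rose with FIDAS-5 (by 1.25 on the log2 scale, SE 0.13, adjusted p = 0.000366), was not called with JQ1 (0.24, adjusted p = 0.178) and was lower with JQ1 than with FIDAS-5 (-1.0, adjusted p = 0.000498). ACADS, for short chains, on chromosome 12 (120725826 to 120740008), was at 1.38, 1.25 and 1.46 TPM in the vehicle libraries, 2.74, 3.05 and 2.80 TPM with FIDAS-5 and 4.58, 4.37 and 4.0 TPM with JQ1. It was low throughout, and its groups did not overlap. ACADS rose by 0.71 (adjusted p = 0.00255; 0.39 once corrected for the GC trend described below) and 1.17 (adjusted p = 9.70e-05), and was higher with JQ1 than with FIDAS-5 (0.46, adjusted p = 0.0114).

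ACADSB, which acts on short branched chains from isoleucine and lies on chromosome 10 (123009006 to 123058290), was at 13.2, 14.7 and 16.2 TPM in the vehicle libraries, 17.3, 13.1 and 7.74 TPM with FIDAS-5 and 55.9, 46.7 and 17.9 TPM with JQ1. The JQ1 libraries lay above vehicle, but replicate 3 was close to the highest vehicle library. The rise with JQ1 of 1.25 had an SE of 0.41 (adjusted p = 0.0388), and its call was lost with no filter (adjusted p = 0.0834), with only the 6 libraries compared (adjusted p = 0.0523) and without any vehicle library, FIDAS-5 replicate 2 or JQ1 replicates 1 or 2 (adjusted p = 0.0613 to 0.121). ACADM, the medium-chain enzyme, was at 8.85 to 11.1 TPM in vehicle, 5.26 to 12.2 TPM with FIDAS-5 and 4.80 to 12.4 TPM with JQ1, and replicate 3 was the lowest of both treated groups. Its log2 fold changes were -0.11 and -0.20 with an SE of 0.36, a spread that leaves room for changes as large as several of those called elsewhere. ACADL, the long-chain enzyme, was listed at 0 in 6 of the 9 libraries and never above 0.0442 TPM.

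Of the 7 genes for the later steps of the mitochondrial spiral, 2 rose and 1 fell with FIDAS-5, and 2 rose and none fell with JQ1. These few genes stand beside 12.6% and 7.60% of all tested genes with FIDAS-5 and 19.0% and 19.4% with JQ1. The summed level of HADH, HADHA, HADHB, ECHS1, ECI1, ECI2 and ACAA2 was 203 to 254 TPM in vehicle, 252 to 265 TPM with FIDAS-5 and 247 to 274 TPM with JQ1. HADH, the 3-hydroxyacyl-CoA dehydrogenase for short and medium chains on chromosome 4 (107989889 to 108035171), was at 15.4, 17.1 and 14.3 TPM in the vehicle libraries, 9.93, 9.67 and 8.51 TPM with FIDAS-5 and 16.9, 15.3 and 12.9 TPM with JQ1. It was the only gene of this set that fell with FIDAS-5 (-0.68 on the log2 scale, SE 0.14, adjusted p = 0.00926), and with JQ1 it overlapped vehicle (-0.06, adjusted p = 0.774). The hydratase ECHS1 rose with both compounds, from 42.5 ± 4.61 TPM in vehicle to 62.9 ± 2.96 and 71.2 ± 3.45 TPM (SD, n = 3; log2 fold changes 0.56 and 0.74, adjusted p = 0.0120 and 0.00170). The isomerase ECI1, which handles unsaturated chains, was at 14.6 ± 0.822, 18.8 ± 0.587 and 24.7 ± 0.259 TPM and rose by 0.35 (adjusted p = 0.0474) and 0.72 (adjusted p = 0.000908). With FIDAS-5 the call of ECHS1 was lost without vehicle replicate 3 or FIDAS-5 replicate 3 (adjusted p = 0.0546 and 0.0539), and that of ECI1 was lost without any of the 9 libraries (adjusted p = 0.0512 to 0.115) and its fold change was near 0 once corrected for GC (0.03, adjusted p = 0.903). The same correction gave 0.31 for ECHS1 with FIDAS-5 (adjusted p = 0.0150) and 0.39 for ECI1 with JQ1 (adjusted p = 0.0444).

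HADHA and HADHB encode the alpha and beta subunits of the mitochondrial trifunctional protein and lie head to head on chromosome 2, with annotated starts at 26244632 and 26244939, 307 bases apart on opposite strands. The 250 bases before the start of HADHB (chr2:26244689-26244938, plus strand, RefSeq on GRCh38.p14) are shown because all of them lie between those starts, with no repeat of the kind searched.
HADHB: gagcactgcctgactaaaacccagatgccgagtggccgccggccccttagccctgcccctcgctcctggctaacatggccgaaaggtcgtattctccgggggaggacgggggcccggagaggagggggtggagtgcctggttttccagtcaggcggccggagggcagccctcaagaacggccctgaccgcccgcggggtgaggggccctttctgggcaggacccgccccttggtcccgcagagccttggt
HADHA was at 32.0, 45.0 and 41.1 TPM in the vehicle libraries, 48.2, 46.6 and 51.6 TPM with FIDAS-5 and 43.1, 43.5 and 43.0 TPM with JQ1. HADHB was at 40.9, 62.5 and 48.2 TPM in the vehicle libraries, 53.0, 53.2 and 52.7 TPM with FIDAS-5 and 66.2, 63.8 and 54.7 TPM with JQ1. Neither was called in any comparison (log2 fold changes 0.31 and 0.09 with FIDAS-5, 0.14 and 0.30 with JQ1), except that HADHB rose with JQ1 without vehicle replicate 2 (0.46, adjusted p = 0.0358). The ratio of HADHB to HADHA was 1.17 to 1.39 in vehicle, 1.02 to 1.14 with FIDAS-5 and 1.27 to 1.54 with JQ1. The ratios with FIDAS-5 lay below those in vehicle, a difference that was not tested.

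ECI2, the other isomerase, and ACAA2, the last enzyme of the spiral, were called against vehicle with neither compound. ACAA2 was at 31.1, 40.5 and 32.0 TPM in the vehicle libraries, 38.6, 35.6 and 37.2 TPM with FIDAS-5 and 29.2, 25.4 and 22.1 TPM with JQ1. All JQ1 libraries were below vehicle (-0.42, adjusted p = 0.0530), a call gained with protein-coding genes rescaled, median-of-ratios scaling or quantile normalization (adjusted p = 0.0212, 0.0446 and 0.0325) and without vehicle replicate 1 or JQ1 replicate 1 (adjusted p = 0.0498 and 0.0423). ECI2 had log2 fold changes of -0.01 and -0.32 (adjusted p = 0.980 and 0.277).

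In peroxisomes, ACAA1 rose with both compounds. ACAA1, the thiolase that ends each peroxisomal round, lies on chromosome 3 from 38122715 to 38137127. It was at 17.1, 24.2 and 18.1 TPM in the vehicle libraries, 61.9, 59.5 and 56.6 TPM with FIDAS-5 and 59.6, 63.4 and 60.7 TPM with JQ1. The treated groups overlapped each other and lay far above vehicle. The log2 fold changes were 1.55 (SE 0.14, adjusted p = 0.000188) and 1.60 (SE 0.14, adjusted p = 7.85e-05), and it was 0.05 between the compounds (adjusted p = 0.839). EHHADH and HSD17B4, the bifunctional enzymes between oxidase and thiolase, were not called. HSD17B4 was at 26.0, 40.2 and 37.4 TPM in the vehicle libraries, 57.7, 44.8 and 29.2 TPM with FIDAS-5 and 52.6, 46.9 and 21.2 TPM with JQ1. Replicates 1 and 2 of both treated groups were above every vehicle library and replicate 3 was not, and the log2 fold changes of 0.31 and 0.14 had an SE of 0.37. EHHADH was at 3.11 to 6.65, 3.05 to 5.91 and 3.03 to 7.43 TPM in the 3 groups.

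Electrons from the dehydrogenases pass to the respiratory chain through the flavoprotein ETF, a dimer of ETFA and ETFB, and its oxidoreductase ETFDH. ETFB, on chromosome 19 (51345155 to 51366388), was at 4.81, 7.30 and 6.26 TPM in the vehicle libraries, 15.8, 15.5 and 21.1 TPM with FIDAS-5 and 10.8, 12.2 and 13.3 TPM with JQ1. The groups did not overlap, and FIDAS-5 was highest. ETFB rose by 1.38 with FIDAS-5 (SE 0.18, adjusted p = 0.00101) and by 0.89 with JQ1 (SE 0.18, adjusted p = 0.00429). Its partner ETFA was far more abundant, at 106, 140 and 112 TPM in the vehicle libraries, 166, 143 and 104 TPM with FIDAS-5 and 128, 126 and 72.8 TPM with JQ1. ETFA overlapped across the groups (log2 fold changes 0.19 and -0.17, SE 0.26), with replicate 3 the lowest in both treated groups. ETFDH was at 2.57, 2.39 and 3.14 TPM in the vehicle libraries, 5.49, 4.63 and 3.95 TPM with FIDAS-5 and 4.67, 5.11 and 1.95 TPM with JQ1. The FIDAS-5 libraries of ETFDH all lay above vehicle without a call (0.62, adjusted p = 0.138). It was called with protein-coding genes rescaled, median-of-ratios scaling, quantile normalization, correction for GC, only the 6 libraries compared, or without JQ1 replicate 3 (adjusted p = 0.00404 to 0.0380). With JQ1 it was called once corrected for GC and without JQ1 replicate 3 (0.47 and 0.68, adjusted p = 0.0224 and 0.0119).

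Of the 4 ketone body genes, BDH1 rose and OXCT1 fell with FIDAS-5, and OXCT1 fell with JQ1. BDH1, the dehydrogenase that interconverts acetoacetate and beta-hydroxybutyrate, lies on chromosome 3 from 197509783 to 197573343. It was at 0.305, 0.242 and 0.376 TPM in the vehicle libraries, 1.72, 1.66 and 1.58 TPM with FIDAS-5 and 0.243, 0.172 and 0.0973 TPM with JQ1. The FIDAS-5 libraries stood alone above 1 TPM, at a mean 5.37 times that of vehicle. BDH1 entered the test only through these libraries, so its adjusted p-values are no independent support for the rise. BDH1 rose by 1.02 on the log2(TPM + 1) scale (SE 0.11, adjusted p = 0.000412) and by 2.12 with a pseudocount of 0.1, and was not called with JQ1 (-0.16, adjusted p = 0.287) except once corrected for GC (-0.28, adjusted p = 0.0273).

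OXCT1, the transferase with which tissues other than liver activate acetoacetate, is on chromosome 5 from 41730065 to 41870425. It was at 2.06, 2.39 and 2.25 TPM in the vehicle libraries, 0.857, 0.591 and 0.366 TPM with FIDAS-5 and 0.409, 0.256 and 0.122 TPM with JQ1. All treated libraries were below all vehicle libraries, and replicate 3 was the lowest in each treated group. OXCT1 entered the test only through the vehicle libraries, so its adjusted p-values are no independent support for the falls. OXCT1 fell by 1.02 with FIDAS-5 (SE 0.15, adjusted p = 0.00191) and by 1.36 with JQ1 (SE 0.15, adjusted p = 0.000205), or by 1.79 and 2.77 with a pseudocount of 0.1. BDH2, a cytosolic dehydrogenase, had log2 fold changes of 0.18 and -0.61 (adjusted p = 0.687 and 0.110). Its JQ1 libraries, at 4.44, 4.74 and 2.15 TPM, were below the vehicle range of 5.49 to 7.19 TPM, and the fall was called under 3 other scalings (protein-coding rescaled, median-of-ratios, quantile) and once corrected for GC (adjusted p = 0.0273 to 0.0376). ACAT1, the mitochondrial acetoacetyl-CoA thiolase, was at 4.24 to 5.30, 3.72 to 5.97 and 3.60 to 7.16 TPM and was not called (-0.05 and 0.19), except with JQ1 once corrected for GC (0.36, adjusted p = 0.00913).

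Acyl-CoA thioesterases release fatty acids from coenzyme A. The mitochondrial ACOT2 was at 3.92, 3.29 and 3.97 TPM in the vehicle libraries, 7.28, 6.17 and 8.10 TPM with FIDAS-5 and 6.38, 5.00 and 6.50 TPM with JQ1. Both treated groups lay above vehicle, and ACOT2 rose by 0.79 (adjusted p = 0.00592) and 0.55 (adjusted p = 0.0160). ACOT1, its near-identical cytosolic neighbour on chromosome 14, was at 1.99 to 3.35, 2.75 to 4.93 and 3.46 to 4.39 TPM and was not called (0.40 and 0.39, adjusted p = 0.235 and 0.187). Reads may be split between the pair, so their separate levels are uncertain. The peroxisomal ACOT8 rose from 8.14 ± 1.66 TPM to 13.7 ± 1.61 and 11.9 ± 0.592 TPM (SD, n = 3; log2 fold changes 0.69 and 0.51, adjusted p = 0.0144 and 0.0301). With FIDAS-5 the call of ACOT8 was lost without vehicle replicate 3, FIDAS-5 replicate 1 or FIDAS-5 replicate 3 (adjusted p = 0.0514 to 0.0635). With JQ1 leaving out vehicle replicate 1, vehicle replicate 3, JQ1 replicate 1 or JQ1 replicate 2 ended it (adjusted p = 0.0635 to 0.115), as did fitting only the 6 libraries compared (adjusted p = 0.0528), leaving out replicate 3 of both treated groups (adjusted p = 0.0549) and correction for GC (0.33, adjusted p = 0.0959). Without JQ1 replicate 1 the call of ACOT2 with JQ1 was also lost (adjusted p = 0.0543).

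The compounds are not analogs, and their doses differ. Compared directly, 7 of the 34 genes were higher with JQ1 than with FIDAS-5 and 8 lower, beside 16.4% and 18.5% of all tested genes, or 6 and 11 with TPM rescaled to protein-coding genes, where 2175 of 11332 genes were higher and 2938 lower. The higher ones were ACSL1, ACADS, ACADSB, HADH, ECI1, PPARA and ANGPTL4, and the lower ones CPT2, ACADVL, ACAA2, ACOX2, BDH1, PPARGC1B, CREB3L3 and FABP1. HADH, which fell only with FIDAS-5, differed between the compounds by 0.62 (adjusted p = 0.00818), CPT2 by -0.57 (adjusted p = 0.00978), BDH1 by -1.18 (adjusted p = 6.82e-05), PPARGC1B by -0.84 (adjusted p = 0.00162) and FABP1 by -2.20 (adjusted p = 0.000207). The p-value of BDH1 carries the limit given above, since BDH1 was tested only through its FIDAS-5 libraries. CPT1A (0.54, adjusted p = 0.0552), ETFB (-0.49, adjusted p = 0.0614) and BDH2 (-0.79, adjusted p = 0.0512) lay just short of the threshold.

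In this comparison same-numbered libraries deviated together, but so did FIDAS-5 replicate 1 and JQ1 replicate 2 (correlation 0.18). With the replicate number as a block CPT1A, ETFB and BDH2 were called (adjusted p = 0.0270, 0.0418 and 0.0117) and PPARA was not (adjusted p = 0.0504). That fit also blocks the vehicle libraries, and with the block on only the 6 libraries compared all 4 were called (adjusted p = 0.0134, 0.0179, 0.00202 and 0.0102). Over all genes the fit of 6 libraries called 3436 higher and 3232 lower, against 2220 and 2506 without a block. The pairing by number was read from these same departures, so calls gained with the block are no separate support. The number higher with JQ1 fell to 3, 2, 3 and 2 without FIDAS-5 replicate 2, FIDAS-5 replicate 3, JQ1 replicate 1 and JQ1 replicate 2. In the same fits the number higher over all genes fell from 2220 to 1456, 1469, 1454 and 1369. ACSL1 was lost without any of these 4 (adjusted p = 0.0644 to 0.0694), as was ACADSB (adjusted p = 0.0530 to 0.0721). ANGPTL4 was lost without replicate 2 or 3 of either compound (adjusted p = 0.0514 to 0.0775), ECI1 without FIDAS-5 replicates 1 or 3 or JQ1 replicates 1 or 2 (adjusted p = 0.0513 to 0.0885) and ACAA2 without any FIDAS-5 library or JQ1 replicate 2 or 3 (adjusted p = 0.0501 to 0.0701). PPARA was lost without any FIDAS-5 library, vehicle replicates 2 or 3 or JQ1 replicates 1 or 2 (adjusted p = 0.0523 to 0.139). ECI1 was also lost with protein-coding genes rescaled, median-of-ratios scaling and correction for GC (adjusted p = 0.106, 0.107 and 0.0603), and ANGPTL4 with a pseudocount of 0.1 (adjusted p = 0.0623).

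GC content did not enter the choice of the 34 genes, but those with GC-rich transcripts were the ones that mostly rose. Fold changes over all tested genes also went with GC content, more weakly. The median GC content of a gene's annotated transcripts ran from 40.3 to 64.9%, with a median of 51.2%. Of the 17 genes at or above that median, 13 rose with FIDAS-5 and none fell, and of the 17 below it FABP1 and SLC25A20 rose and HADH and OXCT1 fell. With JQ1 the counts were 10 higher and 3 lower above the median, and 2 higher and 2 lower below it. The same split of all tested genes was not counted, so how far it is particular to the 34 genes is unknown. Across the 34 genes the fold change had a Spearman correlation with GC content of 0.66 with FIDAS-5 and 0.42 with JQ1, where 13042 tested genes gave 0.37 and 0.21. Without JQ1 replicate 3 the values with JQ1 were 0.28 for the 34 genes and 0.096 for all genes. These correlations are descriptions, since genes share the same 9 libraries and are not independent replicates.

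**Figure D3:**
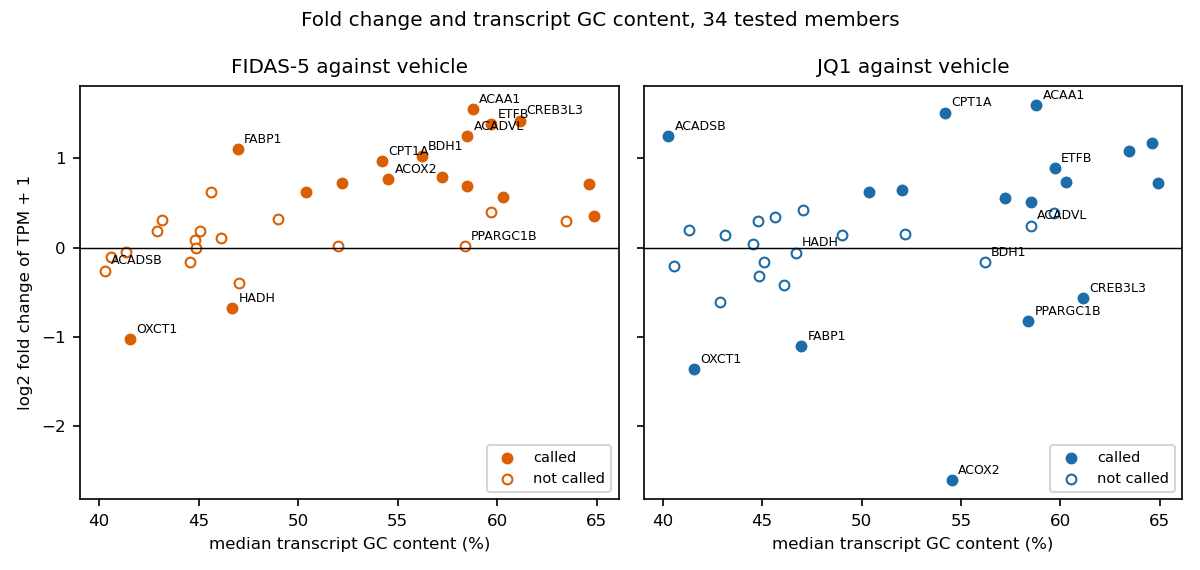
Log2 fold change of TPM + 1 (vertical axis) against the median GC content of annotated transcripts in percent (horizontal axis) for the 34 tested genes, with FIDAS-5 on the left and JQ1 on the right. Filled points have an adjusted p under 0.05; with FIDAS-5 all filled points above 51.2% GC lie above 0.

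GC content also went with the spread between libraries of 1 group. In JQ1 replicate 3 all 17 genes below the median GC lay under their group mean, by a median of 0.49 on the log2 scale, and in FIDAS-5 replicate 3 14 of the 17 did, by a median of 0.22. In vehicle replicate 1, a library of both comparisons with vehicle, all 17 also lay under their group mean, by a median of 0.15. The Spearman correlation of the departure with GC content over the 34 genes was 0.86 in JQ1 replicate 3, -0.84 in JQ1 replicate 1, 0.69 in FIDAS-5 replicate 3 and 0.50 in vehicle replicate 1. Over all tested genes with a GC value it was 0.64, -0.65, 0.55 and 0.38 in these libraries, so the trend was not particular to the 34 genes. Of the 17 genes below the median GC, 14 were lowest in replicate 3 of both treated groups, among them ACADM, ACADSB, HSD17B4, ETFA, OXCT1 and FABP1. The same count was not made over all tested genes of low GC content. Removing a smooth GC trend from each library, the correction for GC named above, left 14 of the 15 genes that rose with FIDAS-5 and both that fell, and lowered the Spearman correlation across the 34 genes to 0.32. Leaving out replicate 3 of both treated groups left 14 of the 15 and 11 of the 12 that rose with JQ1. With the trend removed, 11 of the 12 genes that rose with JQ1 and all 5 that fell were called again.

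**Figure D4:**
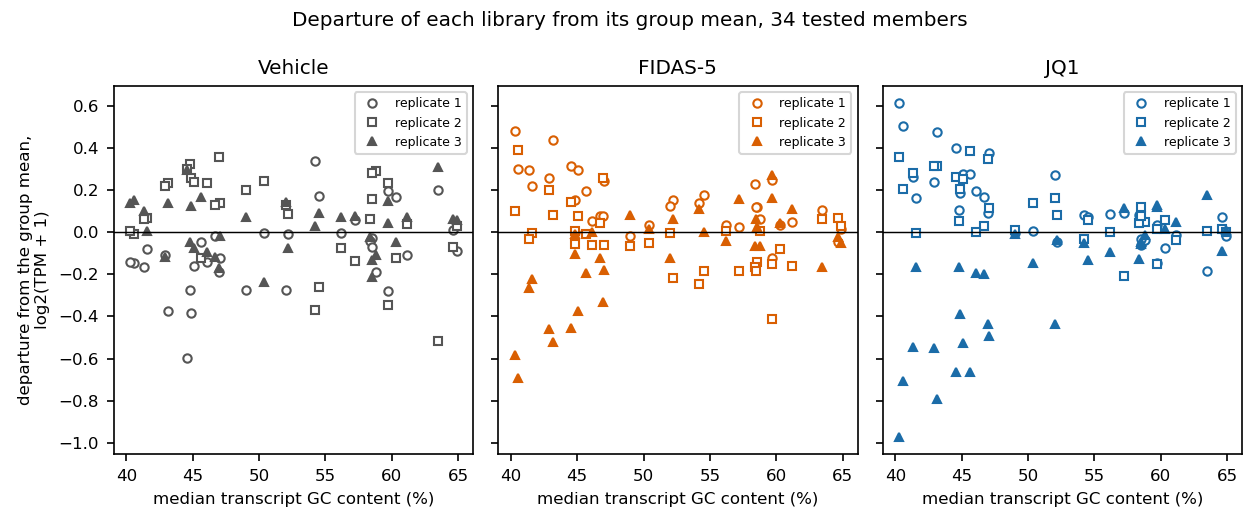
Departure of each library from the mean of its group in log2(TPM + 1) (vertical axis) against median transcript GC content in percent (horizontal axis) for the 34 tested genes, with 1 panel a group. In the JQ1 panel the filled triangles of replicate 3 fall below 0 for all 17 genes under 51.2% GC.

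Other genes of the pathway, 84 listed of which 68 were tested, moved in both directions. With FIDAS-5, 17 of the 68 rose and 5 fell (median log2 fold change 0.19), beside 12.6% and 7.60% of all tested genes. With JQ1 22 rose and 11 fell (median 0.18), beside 19.0% and 19.4% of all tested genes. With FIDAS-5, CIDEC, a protein of lipid droplets, changed by 3.55 (adjusted p = 7.98e-06) and ACSL5, another long-chain acyl-CoA synthetase, by 2.0 (adjusted p = 0.000137). The pyruvate dehydrogenase kinases PDK1 and PDK3 changed by -1.56 and -1.22 and the fatty acid binding protein FABP5, which has near-identical pseudogenes, by -1.0. With JQ1 the triglyceride lipase PNPLA2 rose from 10.0 ± 4.05 to 55.1 ± 1.90 TPM (SD, n = 3; log2 fold change 2.42, adjusted p = 0.000140), and ACAD10, a relative of the acyl-CoA dehydrogenases, changed by 1.69. PDK1, FABP5 and ACSL5 changed by -1.77, -1.27 and -0.94. ACSL5 thus rose with FIDAS-5, from 2.49 ± 0.771 to 12.7 ± 1.18 TPM, and fell with JQ1, to 0.788 ± 0.0774 TPM (SD, n = 3). CIDEC likewise fell with JQ1 (-0.87, adjusted p = 0.00322), and other genes of the 68 also moved opposite ways.

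Of 17 genes of the tricarboxylic acid cycle, which burns the acetyl-CoA made by oxidation, 2 rose and none fell with FIDAS-5 (median -0.09) and 3 rose and none fell with JQ1 (median 0.01). Their summed level was 672 to 740 TPM in vehicle, 645 to 746 TPM with FIDAS-5 and 661 to 782 TPM with JQ1. Of 19 tested genes of fatty acid synthesis, 3 rose and 2 fell with FIDAS-5 and 8 rose and 3 fell with JQ1. Both sets stand beside 12.6% of all tested genes that rose and 7.60% that fell with FIDAS-5, and 19.0% and 19.4% with JQ1.

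Markers of other cell types moved with the groups in part. Of 9 leukocyte markers 5 stayed under 1 TPM in every library, among them the defining PTPRC. Of the 4 tested 3 rose with FIDAS-5 and 2 fell with JQ1, beside 12.6% and 19.4% of all tested genes. The summed level of the 9 was 115 to 141 TPM in vehicle, 253 to 312 TPM with FIDAS-5 and 19.3 to 28.2 TPM with JQ1, the order seen for CREB3L3 and FABP1. LYZ alone was at 102 to 125, 227 to 283 and 9.89 to 14.9 TPM. Of 9 fibroblast and endothelial markers 6 stayed under 1 TPM in every library and CDH5 was listed at 0 throughout. Their summed level was 8.68 to 11.2 TPM in vehicle, 17.8 to 19.1 TPM with FIDAS-5 and 2.91 to 3.47 TPM with JQ1. Of 6 cholangiocyte markers KRT7 was listed at 0 throughout, and the sum was 26.4 to 32.4, 24.4 to 39.7 and 31.9 to 48.6 TPM. All 5 adipocyte markers stayed under 1 TPM in every library. The part of these markers' sources in the results was not tested.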

How the data were processed

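RNA from 9 Huh7 libraries (3 vehicle, 3 FIDAS-5, 3 JQ1) was analysed from deposited TPM for each symbol, which the authors computed with Salmon on hg38, per the submitters' processing notes; the Salmon version and annotation are not given in the sources used here. Libraries summed to 1000000 within 1.22 TPM, depth is unknown, and protein-coding genes held 27.6 to 34.0% of TPM.

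The 13573 genes that reached 1 TPM in 3 or more libraries were fitted as log2(TPM + 1) with limma 3.58.1 in R 4.3.3. The model had a mean per group over all 9 libraries, and tests were two-sided with Benjamini-Hochberg adjustment over all tested genes. The code was also run on simulated data with independent noise in each gene and library. Those data lack the GC trend shared within libraries, so they cannot show how it affects the calls. Biotypes and coordinates were matched by symbol to RefSeq (GRCh38.p14), and GC content is the median over GENCODE transcripts (13042 tested genes). Figures were drawn with matplotlib 3.10.9.

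The members and lists were chosen with earlier results of these data known. Values per library are given for members with a called log2 fold change of at least 1 in size, for regulators and for members opposite between the compounds, plus others where libraries stood apart. From the other pathway genes the rule took the 3 largest rises and falls among those called with each compound; some genes are not reported here.

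Same-numbered FIDAS-5 and JQ1 libraries correlated in their departures from group means at 0.26, 0.10 and 0.42. As all were above 0.1, the numbers were taken as pairing these groups, from the data and not from the labels. This pairing is uncertain, since FIDAS-5 replicate 1 and JQ1 replicate 2 correlated at 0.18, above the replicate 2 pair. Departures over tested genes with a GC value correlated with GC content at -0.51, -0.21 and 0.55 in FIDAS-5 replicates 1, 2 and 3. In JQ1 replicates 1, 2 and 3 the values were -0.65, -0.34 and 0.64, so same-numbered libraries shared the sign. Whether the pairing only reflects this GC trend was not tested. Same-numbered vehicle libraries correlated with the treated ones at -0.08 to 0.16 and were not taken as paired. The highest of these, vehicle replicate 2 with FIDAS-5 replicate 2, was itself above 0.1.

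Alternatives were a pseudocount of 0.1, no filter, a 5 TPM filter, TPM rescaled to protein-coding genes, quantile normalization, median-of-ratios scaling, moderation with a trend, a fit of only the 6 libraries compared, a lowess GC trend removed per library (span 0.3), a replicate block, and leaving out libraries. A block fitted to only the 6 libraries compared was chosen after seeing the data.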

Additional observations from a re-analysis of the deposited data

How the results depend on the processing

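Each of 102 fold changes (34 genes, 3 comparisons) was recomputed under 21 alternatives. Of 49 called, 32 kept their call under every alternative that could test the gene and 17 lost it under at least 1; no called value changed sign, 14 others were called under at least 1, and 22 uncalled values changed sign under at least 1. The 5 TPM filter tested 26 of the genes and gave 1 lower with FIDAS-5 (2 without it), 3 lower with JQ1 (5) and 4 higher with JQ1 than with FIDAS-5 (7), fewer genes being tested. When each library was left out in turn, the number higher with JQ1 than with FIDAS-5 was 2 to 8; the cause was not tested. The replicate block gave 14 higher and 2 lower with FIDAS-5, 12 and 6 with JQ1, and 7 and 10 between the compounds. Vehicle numbers were not taken as a pairing: FIDAS-5 replicate 3 correlated best with vehicle replicate 1 (0.08). Likewise JQ1 replicate 2 correlated better with FIDAS-5 replicate 1 (0.18) than with FIDAS-5 replicate 2 (0.10), so pairing the compounds by number is uncertain too. With the block on only the 6 libraries compared, the counts were 11 and 2, 8 and 4, and 8 and 10. Over all genes this fit gave 1311 and 822, 1500 and 1602, and 3436 and 3232. The same 6 libraries without a block gave 1447 and 1064, 2212 and 2355, and 2122 and 2503. All 9 libraries without a block gave 1711 and 1031, 2582 and 2637, and 2220 and 2506. With the block on 6 libraries the fall of CREB3L3 with JQ1 was not called (adjusted p = 0.0609), nor were the rises of ECHS1, SLC25A20, ACOT8 and ECI1 with FIDAS-5 (adjusted p = 0.0575, 0.0611, 0.0670 and 0.167). Over all genes, removing the GC trend changed the FIDAS-5 calls to 2397 higher and 2019 lower, leaving out vehicle replicate 3 to 1072 and 567, and leaving out FIDAS-5 replicate 3 to 1092 and 548, from 1711 and 1031. Low TPM limits the genes near 1 TPM, and counting error cannot be given.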
